A study of Danio rerio with 6 samples.

Results

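The proteasome subunit genes of the larval zebrafish fin fold were taken as every row of the deposited count table whose gene name begins with psm, a letter from a to g and a number, with at least 15 counts summed over the 6 libraries. Of the 32266 genes in the table, 53 had such a name and 49 met the count minimum. The rule used the name and the summed count, and not the difference between groups, but it was chosen with earlier results of these data known. RNA was sequenced from fin folds of zebrafish (Danio rerio) larvae aged 3 days, a fold being a thin sheet of epidermis over mesenchyme and stiff collagenous rods. The comparison is of 3 libraries of uncut folds with 3 libraries of folds taken 4 h after amputation. The sample descriptions of both groups carry the name of the solvent DMSO, and the labels name no drug, strain or transgene, and do not say how many larvae were pooled.

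The proteasome is the protease that breaks down proteins marked with ubiquitin. Its core particle, called 20S, is a barrel of stacked rings whose alpha subunits guard the entrance and whose beta subunits hold the cutting sites. A cap called 19S, made of ATPase and non-ATPase subunits, binds ubiquitin chains, removes them and feeds the unfolded protein into the barrel, and core and cap together form the 26S proteasome. Other proteins help to assemble the particle, open it without ubiquitin (the activators) or inhibit it. In mammals the transcription factor Nrf1 raises the genes of the subunits together when proteasome capacity falls short.

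Total counts ranged from 11216130 to 23019556 per library, with the lowest in uncut replicate 3, and 1 count was worth 0.0436 to 0.0971 units of CPM, the count scaled to a common library size, where libraries were scaled by the trimmed mean of M-values (TMM). Principal component 1 (66% of variance) parted the groups, and component 2 (14.1%) set uncut replicate 1 away from the rest. The labels do not say whether each replicate had its own larvae, and the p-values below therefore measure the spread among these libraries, which may be technical. Levels are TMM-scaled CPM, log2 fold changes are amputated over uncut with their standard error (SE), and calls rest on edgeR's quasi-likelihood test of 17883 genes, with p adjusted by the method of Benjamini and Hochberg and a threshold of 0.05.

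Most genes of the 26S proteasome were modestly higher 4 h after amputation. Among members, the rise was 1.25-fold to 1.88-fold in the 19S cap genes and up to 1.47-fold in the 20S ring genes. Of the 49 members, 48 had enough counts to be tested, and 38 of these were called higher and 0 lower. The share called higher was 79.2%, where 20.8% of all tested genes were called higher and 19.6% lower. At an unadjusted p under 0.05 the count of members lower was also 0, as it was in DESeq2. In 39 of the 48 every amputated library lay above every uncut library, an arrangement found in 26.9% of all tested genes. The median log2 fold change was 0.45 over the tested members and 0.00 over all tested genes. In tissue RNA of this kind, more RNA per cell and more cells of a type that is rich in it cannot be told apart.

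The rise was seen in each amputated library. The 49 members took 0.221%, 0.219% and 0.196% of the reads counted in uncut replicates 1, 2 and 3, against 0.370%, 0.358% and 0.353% in amputated replicates 1, 2 and 3. After TMM scaling their summed level was 2480, 2341 and 2136 CPM in the uncut libraries and 3447, 3200 and 3248 CPM in the amputated libraries. The groups did not overlap on either measure. Within the uncut group replicate 1 was highest and replicate 3 lowest, and within the amputated group replicate 1 was highest. Scaling by library totals alone moved the median of all tested genes to 0.26 and that of the members to 0.71. The gap between these medians stayed at 0.45, but a change of scaling shifts all genes nearly alike. The equal gap was therefore fixed in advance and is no added support. Scaling by totals also changed the make-up of the background, in which 80.6% of called genes were then higher, against 51.6% after TMM.

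**Figure D1:**
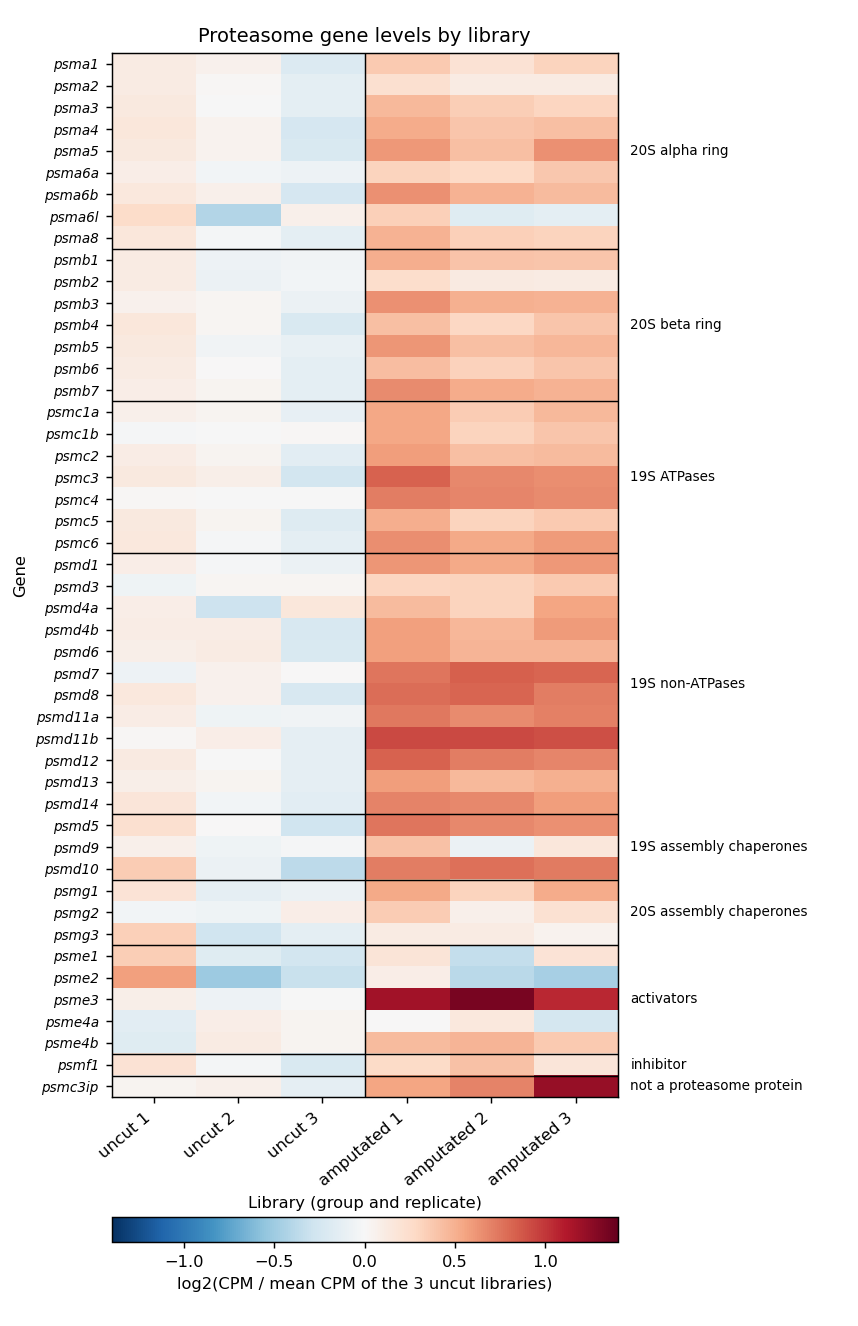
Level of each of the 48 tested proteasome genes (rows, ordered by role) in each of the 6 libraries (columns), as log2 of CPM over the mean CPM of the 3 uncut libraries, with red for higher and blue for lower. Red fills the 3 amputated columns for nearly all 20S and 19S rows and is deepest in psme3, while psme1, psme2, psme4a and psma6l show no such step.

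The alpha ring of the core, whose subunits gate the barrel, had 9 genes, of which 7 rose and 2 were not called. The largest change was in psma5, at 47.8, 45.2 and 37.6 CPM in uncut replicates 1, 2 and 3 and 66.5, 58.5 and 67.8 CPM in amputated replicates 1, 2 and 3. This is a log2 fold change of 0.56 ± 0.10 (SE, adjusted p = 0.000978), with the groups well apart. The next were psma6b, psma4, psma8, psma3, psma6a and psma1, at log2 fold changes of 0.52, 0.44, 0.38, 0.37, 0.33 and 0.29. The call of psma1 (adjusted p = 0.0251) was the least secure, since it was lost on leaving out uncut replicate 2 (adjusted p = 0.0507) or 3 (0.108), or amputated replicate 1 (0.104) or 3 (0.0673).

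The 2 alpha genes that were not called were psma2 and psma6l. For psma2 the levels were 30.8, 28.7 and 25.8 CPM in uncut and 33.3, 30.7 and 30.7 CPM in amputated libraries, a log2 fold change of 0.15 ± 0.09 (adjusted p = 0.243), and uncut replicate 1 reached the amputated range. The alpha-1 type subunit, which is a single gene in mammals, has 3 genes here, psma6a, psma6b and psma6l. The third, psma6l, held 285 counts in all, at 3.09, 1.95 and 2.72 CPM in uncut and 3.26, 2.31 and 2.35 CPM in amputated libraries, and its log2 fold change was 0.05 ± 0.25 (adjusted p = 0.89), between −0.16 and 0.23 with 1 library left out. Its values overlapped between the groups. In psma6a they went from 38.8, 35.4 and 34.6 CPM to 45.1, 44.0 and 47.3 CPM, and in psma6b from 30.8, 29.2 and 23.6 CPM to 43.3, 39.2 and 38.0 CPM, so that both separated the groups. Their ratio, which does not depend on library scaling, was added after the values were seen: log2(psma6a/psma6b) was lower after amputation by a mean difference of −0.21 ± 0.11 (SE, exact two-sided permutation p = 0.2, 95% interval −0.51 to 0.10). Its values overlapped between the groups. Between same-numbered libraries, a pairing that the labels do not state, it was lower in 3 of 3 pairs. The exact sign-flip permutation p was 0.25, the smallest that 3 pairs can give. Several ratios given below reached the same p, among them psme4a/psme4b. Where copies such as psma6a and psma6b share sequence, reads may have been split between them in a way that no source used here describes.

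The beta ring had 7 standard genes, of which 6 rose, and in all 7 every amputated library lay above every uncut library. The cutting sites are carried by psmb5 (chymotrypsin-like), psmb6 (caspase-like) and psmb7 (trypsin-like), and all of these rose. Levels of psmb5 (chromosome 2, 38390944 to 38410247) were 78.3, 68.8 and 66.5 CPM in uncut and 109.0, 95.6 and 98.2 CPM in amputated libraries, a log2 fold change of 0.50 ± 0.09 (adjusted p = 0.000816). Those of psmb6 were 48.5, 44.8 and 40.7 CPM against 60.1, 56.0 and 58.3 CPM, at 0.38 ± 0.09 (adjusted p = 0.00438). The model of psmb6 lies whole within those of eif4e2rs1 and dlg4b, and reads there may be shared. With 3102 counts against 5837 in psmb6, eif4e2rs1 rose by 0.53 ± 0.10 (adjusted p = 0.00154), and dlg4b was not called (−0.15 ± 0.12). Levels of psmb7 were 79.5, 76.7 and 67.8 CPM against 118.4, 106.7 and 104.5 CPM, at 0.55 ± 0.09 (adjusted p = 0.000352). In psmb5, psmb6 and psmb7 uncut replicate 1 was the highest uncut library and still lay below the lowest amputated one.

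Of the beta genes without a cutting site, psmb3, psmb1 and psmb4 rose, at log2 fold changes of 0.54 ± 0.08, 0.43 ± 0.08 and 0.37 ± 0.10. The model of psmb1 lies whole within that of ppp3r1a, which had 3023 counts and was at −0.43 ± 0.10 (adjusted p = 0.00565). The remaining gene, psmb2, was at 57.1, 49.8 and 51.3 CPM in uncut and 62.6, 57.3 and 57.3 CPM in amputated libraries. Its groups did not overlap, by a narrow margin, but it was not called (log2 fold change 0.16 ± 0.09, adjusted p = 0.147). It passed when uncut replicate 1 was left out (0.23, adjusted p = 0.0368). Positions are printed as the authors' files have them, and no source used here names the build.

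Vertebrates can swap the cutting subunits for inducible forms, which make the immunoproteasome of leukocytes and interferon-treated cells, and in zebrafish several of these genes lie together in the MHC region. Of the 5 genes with such names, only psmb9a reached the count minimum, with 28 counts in all, and it did not pass the filter on low counts before the fit. Its counts were 2, 4 and 4 in uncut and 11, 3 and 4 in amputated libraries, so that only amputated replicate 1 was above the rest. The ratio to psmb6, the standard subunit it replaces, differed by −0.28 ± 0.72 on the log2 scale (SE, 95% interval −2.29 to 1.73, exact two-sided permutation p = 0.5), an interval too wide to place a change. The other genes, all far below the minimum, were psmb12 with 3 counts, psmb8a with 2 and psmb10 of chromosome 19 with 1, while psmb11b, whose mammalian relative serves the thymus, had 0. A total of 0 over all 6 libraries allows a level of up to 0.0273 CPM before TMM scaling, by counting error alone.

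These low counts do not measure how much of the inducible forms the fold held, because the deposited gene models overlap. On chromosome 19 the model of psmb8a runs from 7186913 to 7225623 and that of psmb10 from 7192854 to 7225660, and both span psmb12 (7196298 to 7200531) and psmb9a (7201455 to 7203448) whole. No source used here says how reads that fall in several models were counted. A further gene written as PSMB10, on chromosome 4, falls outside the name rule only by its capitals, and RefSeq's gene table (assembly GRCz12tu) gives the name psmb10 with the synonym beta2i to a gene on chromosome 4. It was at 7.90, 7.53 and 8.84 CPM in uncut and 7.62, 5.81 and 7.84 CPM in amputated libraries, with overlapping groups and a log2 fold change of −0.18 ± 0.16 (adjusted p = 0.394) that was 0.07 with library totals. Whether this PSMB10 is the RefSeq gene was not tested, and no source used here names the build of the deposited positions. Against psmb7, the standard subunit that beta2i replaces, the log2 ratio of this PSMB10 was −3.33, −3.34 and −2.93 in uncut and −3.95, −4.19 and −3.73 in amputated libraries. The ratio was lower in all amputated libraries, by a mean difference of −0.76 ± 0.19 (SE, 95% interval −1.28 to −0.23), with an exact two-sided permutation p of 0.1, the smallest that 3 against 3 can give. The pair was chosen after the values were seen.

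All 7 genes of the 19S ATPases, the ring of motors that unfolds substrates and opens the core, rose, and in all 7 the groups did not overlap. The largest change was in psmc3, from 92.4, 88.7 and 70.2 CPM in uncut to 148.0, 134.0 and 131.5 CPM in amputated libraries, a log2 fold change of 0.71 ± 0.10 (adjusted p = 0.000185). The tightest was psmc4 (chromosome 16, 41844683 to 41855208), from 87.9, 87.0 and 86.7 CPM to 143.8, 139.8 and 137.7 CPM, at 0.69 ± 0.07 (adjusted p = 1.9e-05). In psmc4 the uncut libraries lay within about 1 CPM of each other. The others were psmc6 (0.59), psmc2 (0.48), psmc1a (0.45), psmc1b (0.42) and psmc5 (0.39).

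The copies psmc1a and psmc1b encode the same ATPase position. Levels of psmc1a went from 69.7, 68.4 and 61.3 CPM to 96.7, 84.8 and 91.3 CPM, and those of psmc1b from 46.1, 46.6 and 47.2 CPM to 68.0, 58.1 and 61.0 CPM. Both separated the groups. The difference in their log2 ratio was 0.04 ± 0.07 (SE, 95% interval −0.16 to 0.23, exact two-sided permutation p = 0.9), so that no change in their balance was detected within that interval.

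The non-ATPase genes of the cap also all rose, 12 of 12, again with no overlap between groups, and they held the largest changes among subunits of the 26S particle. The largest was in psmd11b (chromosome 12, 28234935 to 28248209), a lid subunit gene, from 40.2, 42.3 and 36.2 CPM in uncut to 75.3, 74.8 and 73.7 CPM in amputated libraries. Its log2 fold change was 0.91 ± 0.08 (adjusted p = 7e-06), or 1.88-fold. The lid genes psmd7, psmd8 and psmd12 followed at 0.80 ± 0.09, 0.77 ± 0.10 and 0.74 ± 0.09. Levels of psmd7 were 23.1, 25.1 and 24.3 CPM against 40.6, 43.0 and 42.5 CPM. Those of psmd8 were 52.3, 49.4 and 40.4 CPM against 81.5, 83.5 and 78.0 CPM, and those of psmd12 were 60.1, 55.0 and 50.7 CPM against 97.7, 91.0 and 88.9 CPM. In all these lid genes the gap between groups was wider than the range within either.

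The lid's deubiquitinase gene psmd14, which removes the ubiquitin chain as a protein is taken in, rose by 0.65 ± 0.09. The large scaffold gene psmd1 rose by 0.59 ± 0.08, psmd13 by 0.51 ± 0.08, psmd6 by 0.51 ± 0.09 and psmd3 by 0.33 ± 0.07. The deposited model of psmd3 spans several other genes, among them nme2b.1 with 61981 counts against its own 12038, and reads there may be shared. The ubiquitin receptor gene is present as psmd4a and psmd4b. Levels of psmd4b were 50.5, 50.5 and 40.1 CPM against 70.0, 64.7 and 71.1 CPM (0.54 ± 0.10, adjusted p = 0.00098), and those of psmd4a were 15.3, 11.8 and 16.03 CPM against 19.6, 17.8 and 21.0 CPM (0.45 ± 0.13, adjusted p = 0.0164). Both separated the groups, though the call of psmd4a was lost without uncut replicate 2 (adjusted p = 0.0834) or amputated replicate 3 (0.0671).

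No shift between the copies of these subunits passed the exact test. The difference in log2(psmd4a/psmd4b) was −0.11 ± 0.23 (SE, 95% interval −0.74 to 0.52, exact two-sided permutation p = 0.7), an interval wide enough to hold a change in either direction. Levels of psmd11a were 42.3, 37.9 and 38.0 CPM in uncut and 65.9, 62.5 and 64.4 CPM in amputated libraries, a log2 fold change of 0.71 ± 0.08 (adjusted p = 3.9e-05). The log2 ratio of psmd11a to psmd11b was 0.08, −0.16 and 0.07 in uncut and −0.19, −0.26 and −0.19 in amputated libraries. It was lower in all amputated libraries, with a difference of −0.21 ± 0.08 (SE, 95% interval −0.43 to 0.01) and an exact two-sided permutation p of 0.1, the smallest possible here.

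**Figure D2:**
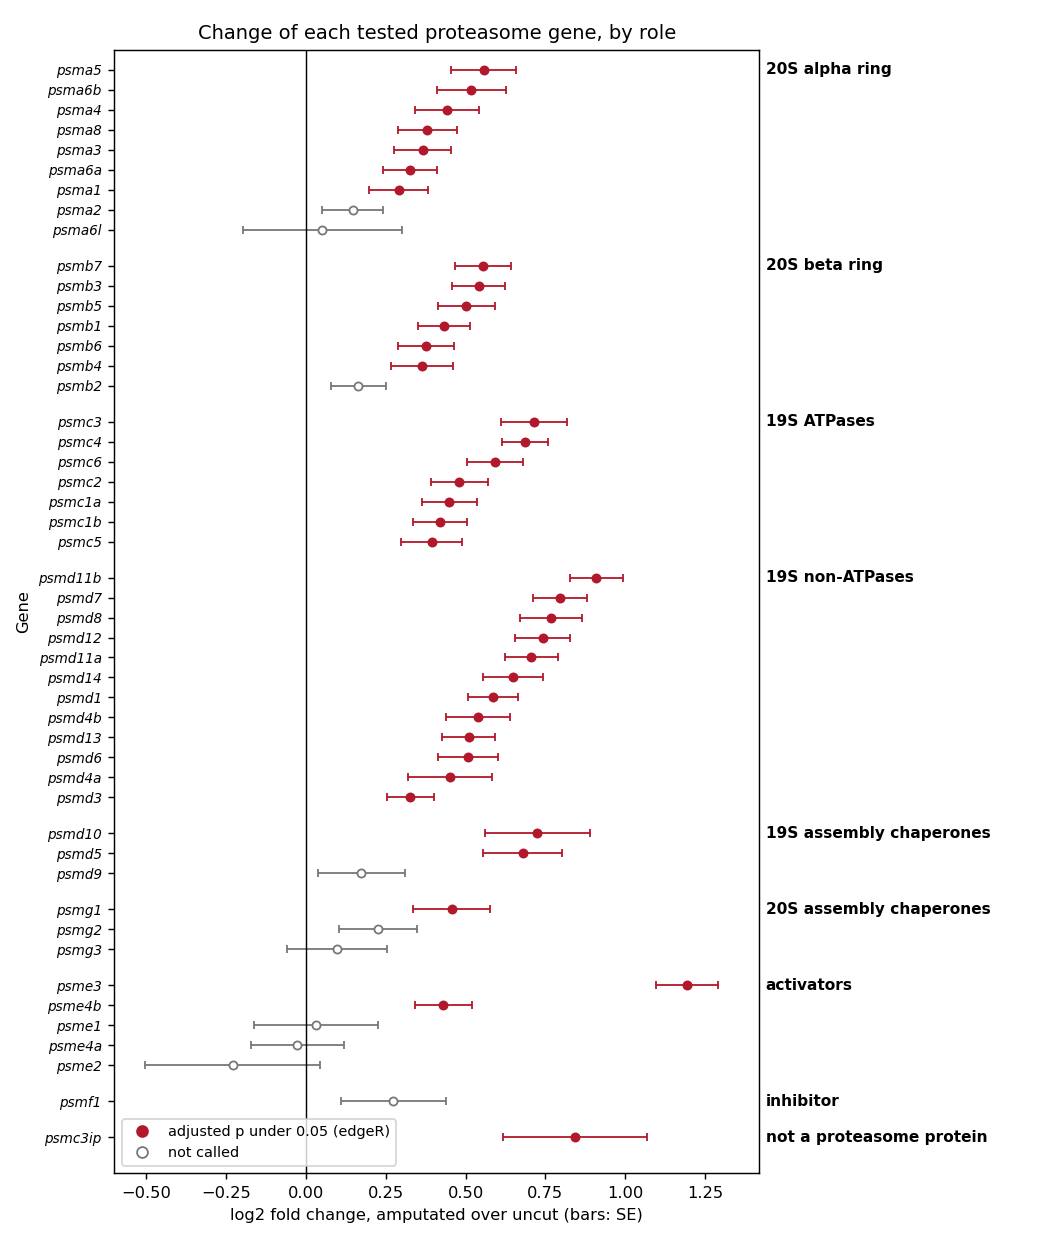
Log2 fold change (amputated over uncut, x axis) of the 48 tested proteasome genes (y axis), grouped by role, with bars for the SE, filled red points for genes called at an adjusted p under 0.05 and open grey points for the rest. All 19 cap subunit genes are filled, from 0.33 (psmd3) to 0.91 (psmd11b), and the 10 open points lie among the rings, the chaperones, the activators and the inhibitor.

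Among members, fold changes tended to be larger in cap genes than in core genes, a difference that is described here and not tested. The median log2 fold change was 0.59 over the 19 tested cap genes and 0.38 over the 16 core ring genes, and the largest value of the core, 0.56 in psma5, lay below the cap's median. The cap gene psmd3, at 0.33, lay below the core's median. Cap subunit genes outside the name rule are left out here. Of these, adrm1 (0.30) and shfm1 (0.28) lay below all 19, and 2 PSMD2 genes were at 0.73 and 0.67. Summed counts of the cap genes were 1.34, 1.41 and 1.41 times those of the core genes in uncut replicates 1, 2 and 3 and 1.53, 1.57 and 1.57 times in amputated replicates 1, 2 and 3. All amputated libraries lay above all uncut ones in this ratio, which does not depend on library scaling. The SD over the 26S genes was 0.19 in the log2 fold change, where the SD over all tested genes was 0.64. The latter also holds the larger error of low-count genes, and genes of like level were not compared. All these values are descriptions of the chosen genes, which share libraries and are not independent of each other.

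**Figure D3:**
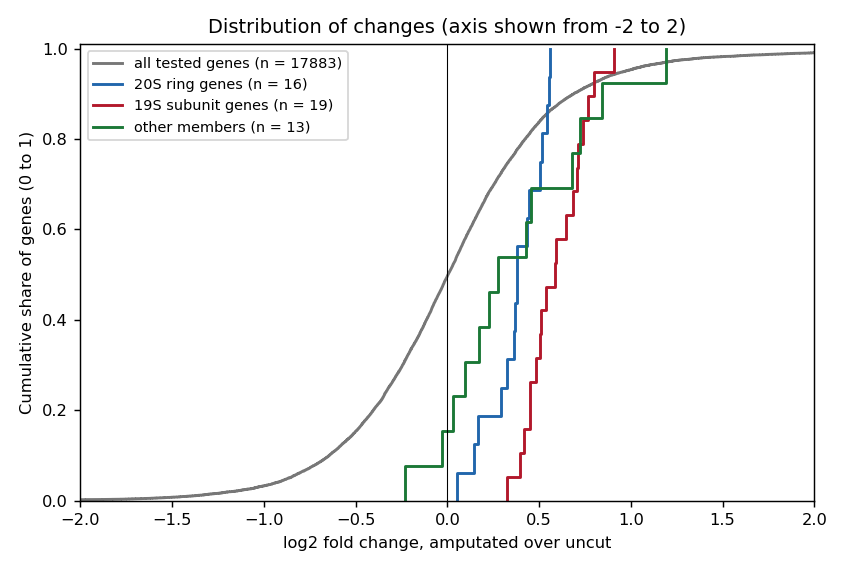
Cumulative share of genes (y axis, 0 to 1) at or below a given log2 fold change (x axis, amputated over uncut, shown from −2 to 2) for all 17883 tested genes, the 16 core ring genes, the 19 cap subunit genes and the 13 other tested members. The core and cap curves lie wholly right of 0 and rise steeply, the cap farther right, while the curve of the other members spreads from −0.23 to 1.19.

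Genes of assembly factors were divided. Of the chaperones that build the base of the cap, psmd10 (gankyrin) went from 7.97, 5.90 and 4.86 CPM to 10.3, 10.7 and 10.3 CPM, a rise of 0.73 ± 0.17 on the log2 scale (adjusted p = 0.00405). The model of psmd10 lies whole within that of nxt2, which rose by 0.61 ± 0.18. Also of this group, psmd5 rose by 0.68 ± 0.12 (adjusted p = 0.000964). The gene psmd9 was at 12.8, 11.8 and 12.1 CPM in uncut and 16.3, 11.6 and 13.6 CPM in amputated libraries, with overlap and no call (0.17 ± 0.14, adjusted p = 0.341).

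Of the chaperones that assemble the alpha ring, psmg1 rose by 0.46 ± 0.12 (adjusted p = 0.00959), a call lost without uncut replicate 2 (adjusted p = 0.053). Its partner psmg2 was at 11.1, 10.9 and 12.1 CPM against 14.6, 11.96 and 13.2 CPM and was not called (0.23 ± 0.12, adjusted p = 0.165). Levels of psmg3 were 13.9, 9.06 and 10.01 CPM against 11.9, 11.9 and 11.4 CPM (0.10 ± 0.16, adjusted p = 0.652). Without uncut replicate 1 psmg3 was at 0.32 (adjusted p = 0.0644), and without uncut replicate 2 at −0.05. In both psmg2 and psmg3 the groups overlapped. PSMG4, the partner of psmg3, is written in capitals in the table and so falls outside the name rule. It was at −0.08 ± 0.12 (adjusted p = 0.627), and at 0.17 with library totals.

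The activators, which cap the core without ubiquitin recognition, differed most among themselves. The largest change of any member was in psme3 (chromosome 12, 27115368 to 27122688), which encodes the nuclear activator PA28 gamma. Its level was 22.7, 20.5 and 21.4 CPM in uncut and 48.8, 53.9 and 44.9 CPM in amputated libraries, so that the lowest amputated library held about as much again as the highest uncut one. The log2 fold change was 1.19 ± 0.10 (adjusted p = 3e-06), or 2.29-fold. The model of psme3 overlaps that of nbr1a by 316 bases, and nbr1a, with 11075 counts, fell by 0.69 ± 0.11.

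In contrast, no change was detected in psme1 and psme2, which encode the chains of PA28 alpha-beta, an activator that mammalian cells raise with interferon and use in antigen processing. Levels of psme1 were 9.28, 6.51 and 6.12 CPM in uncut and 8.26, 5.81 and 8.37 CPM in amputated libraries (0.03 ± 0.19, adjusted p = 0.918). Those of psme2 were 7.18, 3.39 and 3.89 CPM against 5.14, 3.70 and 3.49 CPM (−0.23 ± 0.27, adjusted p = 0.542, and 0.03 with library totals). In both genes uncut replicate 1, the library that stands apart, was the highest uncut value, and the groups overlapped. Without it psme1 was at 0.24 and psme2 at 0.20, and without uncut replicate 2 they were at −0.07 and −0.47, none of them called, so that neither gene has a settled direction. The log2 ratio of psme1 to psme3 was −1.29, −1.65 and −1.80 in uncut and −2.56, −3.21 and −2.42 in amputated libraries, a difference of −1.15 ± 0.29 (SE, 95% interval −1.95 to −0.36). That of psme2 to psme3 was −1.66, −2.59 and −2.45 against −3.24, −3.86 and −3.68, a difference of −1.36 ± 0.34 (SE, 95% interval −2.31 to −0.41). Both ratios were lower in all amputated libraries, each with an exact two-sided permutation p of 0.1, the smallest possible.

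The remaining activator, PA200, is present as psme4a and psme4b, and in mammals it acts in the nucleus. Levels of psme4b rose from 57.8, 70.8 and 67.0 CPM to 88.8, 90.6 and 84.3 CPM, by 0.43 ± 0.09 (adjusted p = 0.00228). Levels of psme4a were 7.77, 9.20 and 8.84 CPM in uncut and 8.61, 9.51 and 7.28 CPM in amputated libraries (−0.03 ± 0.15, adjusted p = 0.899, and 0.23 with library totals), with overlap. The log2 ratio of psme4a to psme4b was −2.89, −2.94 and −2.92 in uncut and −3.36, −3.25 and −3.53 in amputated libraries, a difference of −0.47 ± 0.08 (SE, 95% interval −0.70 to −0.24). This was the widest gap between groups, for the spread within them, among the 9 ratios computed. None of the 9 passed the exact test after Benjamini-Hochberg adjustment, where the smallest value was 0.18. The lowest p before adjustment was reached by 5 of them.

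**Figure D4:**
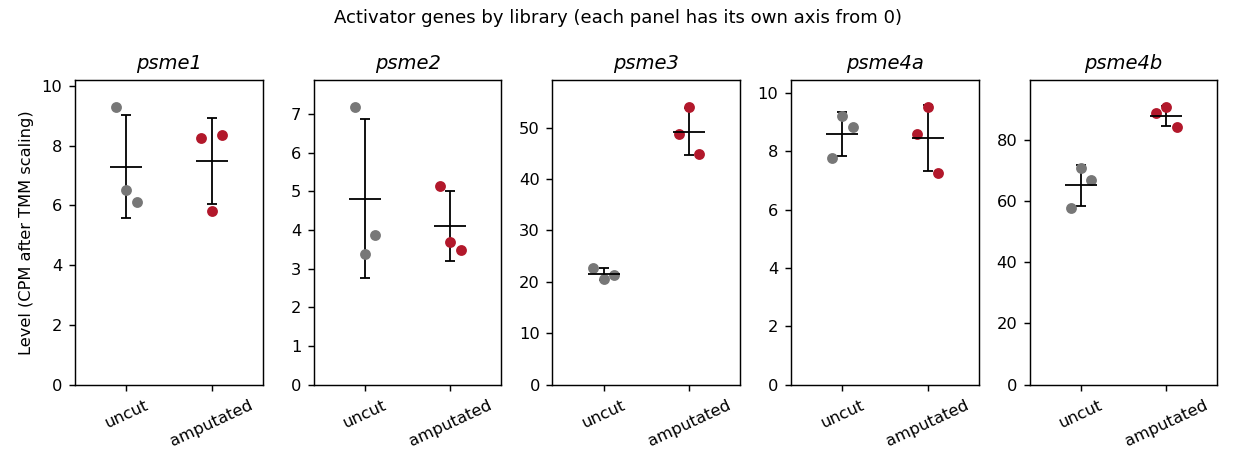
Level in CPM (y axis, from 0, on its own scale in each panel) of the 5 activator genes in the 3 uncut (grey) and 3 amputated (red) libraries, with a bar for the mean and whiskers for the SD. The groups are apart in psme3 (21.5 ± 1.12 against 49.2 ± 4.55 CPM, SD, n = 3) and psme4b (65.2 ± 6.68 against 87.9 ± 3.26 CPM, SD, n = 3) and overlap in psme1, psme2 and psme4a.

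The inhibitor gene psmf1 (PI31) was at 5.73, 4.88 and 4.27 CPM in uncut and 5.99, 6.58 and 5.58 CPM in amputated libraries. It overlapped between groups and was not called (0.27 ± 0.17, adjusted p = 0.212). The name rule also took in psmc3ip, which encodes a protein of meiotic recombination that was named for binding an ATPase subunit and is no part of the proteasome. Its level was 2.501, 2.56 and 2.23 CPM in uncut and 3.56, 3.94 and 5.66 CPM in amputated libraries, with amputated replicate 3 the highest. It rose by 0.84 ± 0.23 (adjusted p = 0.0101), a call lost without amputated replicate 3 (0.61, adjusted p = 0.052).

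Some subunits of the same particle carry other names in the table and were set beside the members after their values were seen. The gene name table gives the symbol PSMD2, the base scaffold that the members lack, to 2 genes on unplaced scaffolds. One went from 64.2, 67.3 and 63.4 CPM to 105.1, 106.2 and 113.4 CPM, at 0.73 ± 0.08 (adjusted p = 1.7e-05). The other went from 58.5, 65.8 and 58.8 CPM to 95.7, 99.1 and 96.4 CPM, at 0.67 ± 0.08 (adjusted p = 4.6e-05). Both rose like the cap genes above, and near-identical copies may share reads. A second gene with the symbol PSMA2, on chromosome 19, rose by 0.42 ± 0.08 (adjusted p = 0.00192), where psma2 itself did not pass. With these genes, PSMB10 and PSMG4 added and psmc3ip left out, 40 genes were called higher and 0 lower.

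Proteins that bind or build the proteasome without a psm name were taken from a written list. Of its 16 tested genes, 10 rose and 0 fell (14 and 0 by totals), with a median log2 fold change of 0.33, against 20.8% called higher and a median of 0.00 over all tested genes. The largest changes were in the proteasome-bound deubiquitinase gene usp14 and in the importin gene ipo9. Levels of usp14 were 30.6, 32.2 and 26.5 CPM in uncut and 62.8, 59.4 and 59.6 CPM in amputated libraries (1.02 ± 0.09, adjusted p = 6e-06), a gap far wider than the spread in either group. The importin gene ipo9 rose by 0.85 ± 0.09 (adjusted p = 2.5e-05), and akirin2, whose mammalian protein guides proteasomes into the nucleus together with that importin, rose by 0.36 ± 0.08. The cap's other deubiquitinase gene uchl5 rose by 0.73 ± 0.11 and the associated thioredoxin-like gene txnl1 by 0.69 ± 0.08.

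The subunit and assembly genes of this list moved less. The ubiquitin receptor gene adrm1 rose by 0.30 ± 0.09 (adjusted p = 0.0154), the small cap subunit gene shfm1, also called sem1, by 0.28 ± 0.09 (adjusted p = 0.0276), and pomp, the maturation factor of the core, by 0.26 ± 0.09 (adjusted p = 0.0417). Levels of pomp were 46.3, 45.4 and 38.7 CPM in uncut and 56.1, 51.4 and 49.3 CPM in amputated libraries, apart by a small margin.

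Genes that deliver proteins to the proteasome had calls in both directions, as did all tested genes, of which 20.8% rose and 19.6% fell. Of 15 ubiquitin, activating enzyme (E1) and shuttle genes tested, 6 rose (40%) and 2 fell, with a median of 0.15. The share that fell was below that of all tested genes. The segregase gene vcp (p97), which pulls ubiquitinated proteins from membranes and complexes, went from 323, 361 and 313 CPM to 584, 571 and 555 CPM (0.78 ± 0.08, adjusted p = 2.1e-05). Its cofactor genes nsfl1c and nploc4 rose by 0.67 ± 0.08 and 0.59 ± 0.09, and the E1 gene uba1 rose by 0.56 ± 0.08. The 2 that fell were sqstm1 (p62), a carrier of ubiquitinated cargo to autophagy, at −0.84 ± 0.10 (adjusted p = 4.6e-05), and the polyubiquitin gene ubb, at −0.47 ± 0.12 (adjusted p = 0.00749). With library totals the call of ubb was lost (−0.21, adjusted p = 0.153), and 10 genes of the list were higher and 1 lower. The other polyubiquitin gene, ubc, was at −0.02 ± 0.08 and was not called. Of 39 ubiquitin-conjugating enzyme (E2) genes taken by the name ube2, 16 rose (41%) and 5 fell, with a median of 0.19 (25 and 2 by totals). Here too the share that fell was below that of all tested genes. The largest rise was in ube2d2l (1.36 ± 0.11), and ube2q1 (−0.80 ± 0.09) and ube2h (−0.58 ± 0.08) fell.

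The lid of the proteasome shares its architecture with the COP9 signalosome, which takes the NEDD8 tag off cullin ligases, and with the translation factor eIF3. Of 7 COP9 genes tested, 3 rose and 0 fell, with a median of 0.21. They were cops3 (0.43 ± 0.10), the catalytic subunit gene cops5 (0.41 ± 0.09) and cops2 (0.26 ± 0.08). Of 14 eIF3 genes tested, 4 rose and 0 fell, with a median of 0.08, and the 4 were eif3jb, eif3ba, eif3ja and eif3eb. That share, 28.6%, is near the 20.8% of all tested genes. Scaled by totals, which called 6820 of all tested genes higher and 1638 lower, 7 COP9 genes (median 0.47) and 12 eIF3 genes (median 0.34) were higher. Over the 12 non-ATPase members of the proteasome cap the median after TMM was 0.62, and the lowest of them, 0.33, lay above the TMM medians of both related complexes. Single genes overlapped, since cops3, cops5 and the 4 eIF3 genes that rose (0.38 to 0.61) lay above 0.33. The other tested genes of both complexes lay below it.

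The Nrf1 and Nrf2 axis, which drives proteasome and antioxidant genes in mammals, had genes called in both directions. Of 16 genes tested, 4 rose and 6 fell, where 20.8% of all tested genes rose and 19.6% fell, so that the share that rose is near the background. The share that fell was above that of all tested genes. The median of the list was −0.12, and 0.14 when scaled by totals, with 5 then higher and 4 lower. Totals called 6820 of all tested genes higher and 1638 lower, so that the list's lower share was again the larger. Levels of nfe2l1b, a zebrafish Nrf1 gene, were 37.9, 39.2 and 41.3 CPM in uncut and 45.5, 45.1 and 49.6 CPM in amputated libraries (0.25 ± 0.08, adjusted p = 0.0325), so that it rose by a small margin. The other copy, nfe2l1a, was at −0.35 ± 0.19 (adjusted p = 0.156). Genes whose mammalian products take Nrf1 out of the endoplasmic reticulum membrane and process it went both ways. The protease gene ddi2 rose by 0.32 ± 0.08 and the deglycosylase gene ngly1 by 0.35 ± 0.08. The ubiquitin ligase gene syvn1 (HRD1) fell by 0.39 ± 0.09 (adjusted p = 0.00328), a call lost with library totals (−0.14), and its partner gene sel1l was at −0.11 ± 0.09, not called, and at 0.15 with library totals. The Nrf2 gene nfe2l2a fell, from 494, 547 and 535 CPM to 345, 359 and 369 CPM (−0.56 ± 0.08, adjusted p = 0.000171). The genes keap1b and keap1a, whose products hold Nrf2 down, fell by 0.80 ± 0.09 and 0.71 ± 0.10, and the repressor gene bach1b fell by 0.84 ± 0.10. The falls of nfe2l2a, keap1b, keap1a and bach1b kept their sign with library totals alone.

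Genes of antigen processing, the other known task of the inducible proteasome, mostly did not pass, and neither did most tested genes (10660 of 17883 not called). Of 20 tested, 2 rose and 2 fell, where 20.8% of all tested genes rose and 19.6% fell. The median of this list was −0.03, and 0.22 when scaled by totals, with 4 then higher and 0 lower. The peptide pump gene tap1 was low and rose from 1.45, 1.77 and 1.17 CPM to 2.47, 3.46 and 1.87 CPM (0.78 ± 0.29, adjusted p = 0.0465), and the lectin chaperone gene canx rose by 0.44 ± 0.08. The 2 that fell were erap1a and b2ml, and both calls were lost with library totals alone, at −0.14 and 0.00. Of 14 interferon response genes tested, 2 rose (stat1b and irf9) and 2 fell (mxc and irf7), with a median of 0.18 (6 and 1 by totals). The share that rose, 14.3%, was below the 20.8% of all tested genes.

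**Figure D5:**
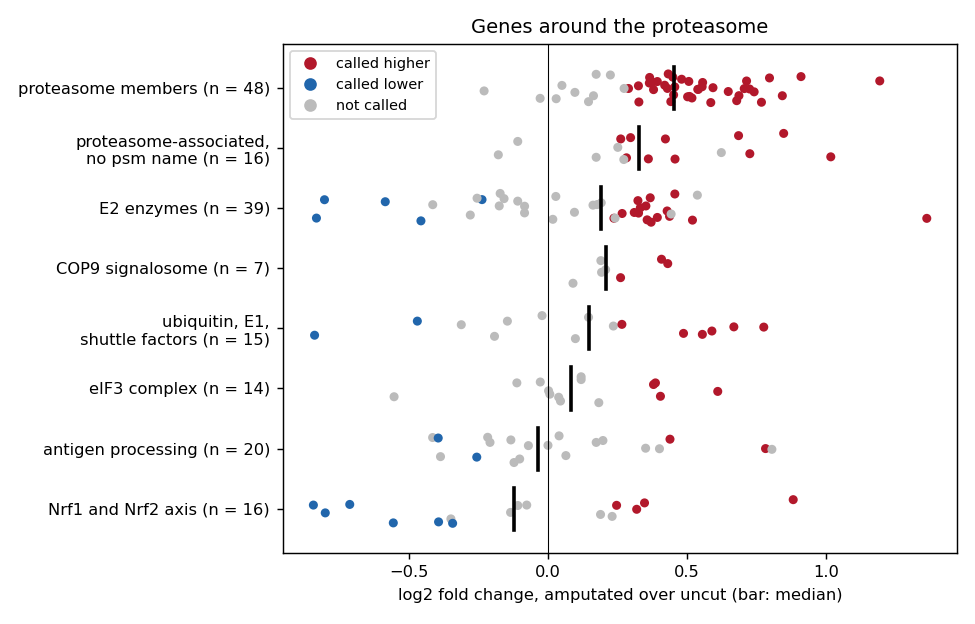
Log2 fold change (x axis, amputated over uncut) of the tested proteasome members and of 7 related gene lists (y axis, with the number tested), with red points for genes called higher, blue for called lower, grey for not called, and a black bar at the median. The medians run from 0.45 in the members and 0.33 in the associated genes down to −0.12 in the Nrf1 and Nrf2 axis.

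Markers of several cell types moved between the groups as well. Their counts are to be read beside all tested genes, of which 20.8% were called higher and 19.6% lower. Scaled by totals, 6820 of all tested genes were called higher and 1638 lower. Epidermis markers summed to between 60410 and 78190 CPM in uncut and between 44450 and 53800 CPM in amputated libraries, and 7 of 13 fell, with 5 lower and 2 higher when scaled by totals. Fin mesenchyme and actinotrichia markers went from between 154300 and 166200 CPM to between 72150 and 81970 CPM, and 10 of 12 fell, with 8 lower and 1 higher when scaled by totals. Of 18 leukocyte markers tested, 17 rose and 1, rac2, fell (at −0.06 with library totals alone), and the list summed to between 175 and 206 CPM in uncut and between 328 and 436 CPM in amputated libraries. Markers of skeletal muscle summed to between 2427 and 2991 CPM in uncut and between 1923 and 2135 CPM in amputated libraries, and 8 of 14 fell, but scaled by totals 3 were higher and 1 lower. Those of notochord summed to between 965 and 1011 CPM and between 493 and 542 CPM, with 1 of 6 rising and 1 falling (2 and 1 by totals). The notochord gene called lower was matn4, at a log2 fold change of −1.475, and the other tested ones lay between −0.35 and 0.26. The lower notochord sum therefore rests mainly on matn4. Smaller lists summed to at most 200.6 CPM in any library: 0 of 8 erythrocyte markers passed, 2 of 10 endothelial markers fell (1 by totals), 1 of 8 neuron and Schwann cell markers rose and 2 fell (1 and 1 by totals), and 1 of 9 pigment cell markers rose and 4 fell (2 and 2 by totals). The shares that fell in the notochord, endothelial, and neuron and Schwann cell lists were near that of all tested genes. The part of the marker shifts in the proteasome values was not tested.

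Members were spread over 21 chromosomes, with at most 6 on 1 chromosome. The models of 14 members overlap another gene model with at least 15 counts, so reads there may be shared. Not all of these are named above. Among the rest, psmd8 overlaps gltscr1 over 16552 bases, with 7451 counts against 5136 in gltscr1. The genes psma6b, psmd4a, psme2 and psmc3ip each overlap a model with more counts than their own. Of the 34 tested members that overlap no model with at least 15 counts, 25 were called higher and 0 lower. Their median log2 fold change was 0.44. The overlapping members had 13 of 14 called higher and a median of 0.56. The authors' deposited table, at the same threshold, also has 38 members higher after amputation and 0 lower, and the 38 are the genes called here.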

How the data were processed

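RNA-seq libraries of uncut fin folds (3 libraries) and of folds 4 h after amputation (3 libraries) were compared. Whole-number counts per Ensembl gene were deposited by the authors, beside a signal that is each library's counts over 1 size factor, its mean, a log2 fold change with its error, a Wald score, a p-value and an adjusted p-value per the file headers. The submitters' processing notes list TopHat, Cufflinks and DESeq2. No source used here names the read counter, build or annotation. Per the labels' protocols, RNA was extracted with Trizol and prepared with a TruSeq RNA kit.

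The raw counts were fitted with edgeR 4.0.16 in R 4.3.3 (filterByExpr with minimum count 10 and minimum total 15, TMM, glmQLFit, glmQLFTest, no covariate), and p-values were adjusted over 17883 genes. SEs were taken from each log2 fold change and its F statistic. The pipeline was tested on simulated data. DESeq2 1.42.0 was an alternative. Ratios of 2 genes used log2(count + 0.5) and an exact permutation test over libraries, with an interval from the pooled SD over libraries. The planned ratios with psmb8a or psmb10 of chromosome 19 were not computed, for want of counts. Replicates of a group differed beyond sampling noise, with a chi-square of 4.62 to 16.7 times its degrees of freedom.

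Libraries with the same number deviated together from their group means (correlations over genes of 0.214, 0.195 and 0.150, all over 0.1). The other pairs were at −0.134 to −0.0388. Centring each group on its mean makes these negative on average where the same-number values are positive, so they are no added support. Because of the same-number correlations, numbers were treated as pairing libraries in an alternative fit with the replicate number as a block. The labels carry the numbers alone, so the pairing rests on these correlations.

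Members, lists and roles were chosen with earlier results of these data known. Of 250 genes written in 16 lists, 231 were found. By the naming rule, values per library were given for the 6 largest and 4 smallest changes. They were also given for catalytic genes, ratio genes and members that did not pass. Up to 4 genes of each pathway list were named by smallest adjusted p, most of them without values per library. Other genes named were chosen after their values were seen. No reference sequence was used here. Alternatives were library totals, DESeq2's size factors, DESeq2, other filters and thresholds, the replicate block and each library left out.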

Additional observations from a re-analysis of the deposited data

How the results depend on the processing

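The count of 38 proteasome genes higher and 0 lower kept both numbers with DESeq2's size factors, in DESeq2, with no filter on low counts, in the authors' deposited table and with the replicate block, which changed no call of a member. The block gave a median of 0.45, and 4125 genes higher and 4016 lower in all. With library totals alone 43 members were higher, their median was 0.71, and 6820 genes were higher and 1638 lower in all. An adjusted p under 0.01 left 34 members, with 2562 genes higher and 2283 lower. A log2 fold change of at least 0.5 as well left 22 members, so that many of the calls are of small changes. With 1 library left out, between 35 and 39 members were higher and 0 lower, with a median between 0.41 and 0.54, and between 3011 and 3869 genes were higher and between 2732 and 3667 lower in all. Of the 38 calls, 34 held in each of these fits and 33 under every alternative run on single genes that tested them. No member's called change reversed. Each gene ratio moved by less than 1 SD under every alternative run. Leaving out 1 of 3 libraries cannot move a group mean by 1 SD of that group, so this does not measure stability. Without uncut replicate 3 the differences in psmb9a/psmb6, psmc1a/psmc1b and psmd4a/psmd4b changed sign, to 0.20, −0.03 and 0.09. With 3 libraries a group, the exact test cannot go below p = 0.1, and psmb9a stayed below the filter on low counts.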
